A study of Mus musculus with 4 samples.

Results

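The 27 genes described here encode enzymes of cholesterol synthesis (18 genes), regulators of that synthesis (5 genes) and proteins of sterol trafficking and storage (4 genes). They were taken by gene symbol from the 32285 genes of the count matrices, and all 27 had UMIs (unique molecular identifiers, which count captured RNA molecules) in each of the 4 libraries. The mice were C57BL/6, per the series description, and had received either 1000 CT2A-GFP-luc cells, a cultured mouse glioma line carrying a fluorescent protein and luciferase, or saline as a sham injection. Cells were dissociated from the brain hemisphere opposite to the injection 2 weeks later and profiled by droplet-based single-cell RNA sequencing. The old tumour library came from mice aged 93 weeks given glioma cells and the old sham library from mice aged 93 weeks given saline. The young tumour and young sham libraries came from mice aged 8 weeks given the same injections. Each group has 1 library, and how many mice went into it is not given in the sources used here. No difference was therefore tested, and the 95% intervals below reflect counting error alone, with no part of the variation between mice or preparations.

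Cells make cholesterol from acetyl-CoA by way of mevalonate, farnesyl diphosphate, squalene and lanosterol. The transcription factors SREBP1 and SREBP2 (Srebf1 and Srebf2) are carried to the Golgi by SCAP when sterols are scarce, and INSIG proteins hold SCAP in the endoplasmic reticulum when sterols are plentiful. Plasma lipoproteins do not cross the blood-brain barrier, so brain cholesterol is made in the brain, where most of it lies in myelin, the membrane laid down by oligodendrocytes, and where astrocytes supply neurons.

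The libraries held 10665 to 12070 barcodes and 62726818 to 76652484 UMIs. After filtering and removal of predicted doublets, 40243 cells remained, with medians of 4855 (old tumour), 4729 (old sham), 3773 (young tumour) and 3918 (young sham) UMIs per cell. Cells were assigned to types by gates on marker genes, none of which is among the 27 genes, and 36850 cells (91.6%) passed a gate. The gated types below are named by their markers alone. Among them were 11541 microglia-gated, 8110 astrocyte-gated, 6324 oligodendrocyte-gated and 3932 endothelial-gated cells, of which 161, 144, 29 and 270 lay near the gate's limit. The smaller types were less cleanly set apart, with 167 of 381 macrophage-gated, 140 of 594 ependymal-gated and 235 of 2097 choroid plexus-gated cells near the limit. Pairs of libraries shared 27 to 53 barcodes, at most 0.468% of the smaller library. A set of 423 cells with at least 3 Hmga2 UMIs occurred in the young tumour library and in no other. It held 20.2% of that library's UMIs and was kept apart from all gated types. Levels are given as CPM (counts per 1000000), the UMIs of a gene scaled to the total UMIs of the cells in question. They were not ranked between genes, since capture at the transcript end differs from gene to gene.

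A ratio of CPM between libraries was called higher or lower where it reached 1.5-fold in either direction, its interval left out 1 and the 2 libraries held at least 50 UMIs of the gene together. In oligodendrocyte-gated cells, described below, 8 enzymes were called lower in old than in young brains, Hmgcs1 and Mvd in both comparisons, Idi1 in sham brains, and Sqle, Cyp51, Tm7sf2, Nsdhl and Hsd17b7 in tumour-bearing brains. Of all genes counted, 3.59% were called lower in tumour-bearing and 3.99% in sham brains, and the share over both comparisons together was not computed. For the 7 of the 8 enzymes with an entry in the RefSeq promoter table, the 150 bases before the transcription start are shown in lower case (GRCm38.p6, read in the direction of transcription). The windows lie at chr13:119690201-119690350 (plus strand, Hmgcs1), chr8:122443423-122443572 (minus strand, Mvd), chr13:8885456-8885605 (plus strand, Idi1), chr5:4104698-4104847 (minus strand, Cyp51), chr19:6067851-6068000 (minus strand, Tm7sf2), chrX:72918371-72918520 (plus strand, Nsdhl) and chr1:169969206-169969355 (minus strand, Hsd17b7). Capitals mark a sterol regulatory element core, TCACNCCAC, or a CCAAT box, read as CCAAT or as ATTGG on the other strand. The last bases of the Hsd17b7 window, with its second ATTGG, lie inside the annotated gene, whose upstream end is at chr1:169969242.
Hmgcs1: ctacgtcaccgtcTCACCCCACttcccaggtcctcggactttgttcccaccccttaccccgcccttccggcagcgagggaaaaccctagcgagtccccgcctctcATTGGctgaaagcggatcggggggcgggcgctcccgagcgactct
Mvd: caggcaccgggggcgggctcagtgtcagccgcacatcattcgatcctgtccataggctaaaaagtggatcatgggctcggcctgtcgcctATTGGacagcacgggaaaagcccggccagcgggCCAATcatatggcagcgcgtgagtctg
Idi1: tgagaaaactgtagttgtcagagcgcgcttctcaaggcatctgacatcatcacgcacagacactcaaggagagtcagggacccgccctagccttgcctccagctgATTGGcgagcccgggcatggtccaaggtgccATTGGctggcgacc
Cyp51: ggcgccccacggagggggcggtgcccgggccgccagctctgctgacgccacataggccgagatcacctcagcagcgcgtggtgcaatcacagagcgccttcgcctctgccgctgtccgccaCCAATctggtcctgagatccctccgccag
Tm7sf2: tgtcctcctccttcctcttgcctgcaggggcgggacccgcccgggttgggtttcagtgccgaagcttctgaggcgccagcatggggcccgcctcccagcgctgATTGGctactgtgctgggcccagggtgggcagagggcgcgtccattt
Nsdhl: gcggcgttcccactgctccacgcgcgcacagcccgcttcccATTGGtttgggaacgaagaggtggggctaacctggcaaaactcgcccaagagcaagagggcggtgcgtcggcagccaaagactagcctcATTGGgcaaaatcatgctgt
Hsd17b7: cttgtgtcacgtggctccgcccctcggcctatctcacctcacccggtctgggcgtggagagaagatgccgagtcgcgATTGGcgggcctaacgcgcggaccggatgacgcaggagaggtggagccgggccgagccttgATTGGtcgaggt
The 22 genes with an entry had 30 promoters. In the window of 250 bases before to 50 bases after the start, both strands searched, the core TCACNCCAC was found in 1.24% of 32851 RefSeq mouse promoters and in 1 of the 30, that of Hmgcs1. A CCAAT box was found in 37.4% of all promoters and in 21 of the 30, from 20 genes. The letters GGGCGG, the GC box, were found in 35.7% of all promoters and in 25 of the 30, from 21 genes. The motifs do not overlap in the windows shown, and a match describes the letters only.

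Across gated cell types, astrocyte-gated cells held the highest level of the pathway. The 10 types with at least 50 cells in every library are compared here. The 18 enzymes summed in astrocyte-gated cells to 2398 CPM in old tumour, 2695 in old sham, 2856 in young tumour and 2667 in young sham. Oligodendrocyte-gated cells came next in every library, with 1275, 1410.2, 1793 and 1932 CPM in the same order. Neuroblast-gated cells held 1065, 915, 1063 and 926 CPM and neuron-gated cells 757, 893, 652 and 744 CPM. Both lay below the oligodendrocyte-gated cells in all 4 libraries. Microglia-gated cells, the resident macrophages of the brain, had the lowest median of the 10 types, with 307 CPM in old tumour, 268 in old sham, 329 in young tumour and 313 in young sham. The median over libraries was 8.65 times higher in astrocyte-gated than in microglia-gated cells. The Hmga2-expressing cells of the young tumour library held 354 CPM, close to that low end.

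**Figure D1:**
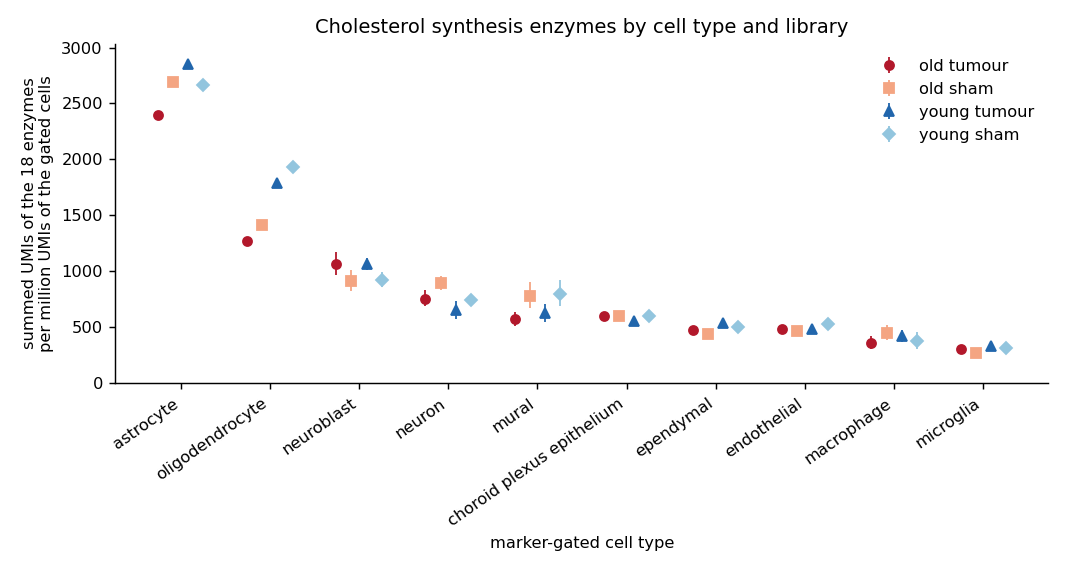
Summed level of the 18 enzymes (CPM of the gated cells, linear axis) in 10 gated cell types, with 1 point per library and 95% counting intervals. Astrocyte-gated cells are highest in all 4 libraries (2398 to 2856 CPM), and in oligodendrocyte-gated cells the old libraries (1275 and 1410.2 CPM) lie below the young ones (1793 and 1932 CPM).

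Single enzymes followed the sum to different degrees. Msmo1, which oxidises a sterol methyl group, stood furthest towards astrocytes among the abundant enzymes, with 749, 820.3, 907 and 874 CPM in astrocyte-gated cells of old tumour, old sham, young tumour and young sham. In oligodendrocyte-gated cells it held 143, 158, 200.1 and 232 CPM. Sqle, squalene epoxidase, had the widest span of any enzyme, with a median of 145 CPM in astrocyte-gated cells and 2.29 CPM in microglia-gated cells. Its next highest type was the ependymal-gated cells, at a median of 113 CPM, and Lss, lanosterol synthase, had the same order of types, at 26.9 and 23.8 CPM. The enzymes were not at one fixed ratio across types.

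Other steps peaked elsewhere. Acat2, the thiolase that opens the pathway, was highest in neuroblast-gated cells in 4 of 4 libraries, with 62.7, 66.6, 65.2 and 86.8 CPM in old tumour, old sham, young tumour and young sham, against a median of 29.8 CPM in astrocyte-gated cells. Fdps, which makes farnesyl diphosphate, a branch point towards other isoprenoids, had nearly equal medians in neuroblast-gated (184 CPM) and oligodendrocyte-gated cells (181 CPM), and each was above the other in 2 libraries. Ebp, a sterol isomerase, was the exception among the enzymes. It was highest in oligodendrocyte-gated cells (median 122 CPM) and nearly as high in microglia-gated cells (median 118 CPM), the type in which 9 of the 18 enzymes had their lowest median. Over the 40 combinations of type and library, the correlation of log2 CPM with the mean of the other enzymes was 0.94 for Cyp51, 0.92 for Fdft1 and 0.91 for Hmgcs1, against -0.30 for Ebp. These are descriptions across cell types that share 4 libraries, with no test.

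Among the regulators, Srebf1, better known for fatty acid genes, was highest in ependymal-gated cells (median 252 CPM) and astrocyte-gated cells (249 CPM), each ahead in 2 of 4 libraries. Srebf2, which drives most genes of cholesterol synthesis, varied less, with 98.7 CPM in astrocyte-gated, 95 in neuron-gated and 13.7 in microglia-gated cells at the median. Insig1, itself a target of the SREBP proteins, followed the enzymes, with a correlation of 0.86 with their mean and medians of 174 CPM in astrocyte-gated and 7.44 CPM in microglia-gated cells. Its paralog Insig2 had a correlation of 0.04, with its highest medians in mural-gated (93.7 CPM) and neuron-gated cells (89.0 CPM). Scap, the escort of the SREBP proteins, varied 4.51-fold between its highest and lowest type, the ependymal-gated and the neuroblast-gated cells.

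Among the types compared, the trafficking genes each had a type of their own. Stard4, a carrier of sterols in the cytosol, was highest in endothelial-gated cells in all libraries, with 68.7, 72.4, 87.5 and 77.0 CPM in old tumour, old sham, young tumour and young sham, and the next type had a median of 24.2 CPM. Npc1, which moves cholesterol out of lysosomes, was highest in oligodendrocyte-gated cells, with 253, 298, 217 and 223 CPM. Npc2, the soluble partner of Npc1, was highest among these types in macrophage-gated (median 1106 CPM) and microglia-gated cells (997 CPM). Of these, macrophage-gated cells were ahead in 3 of 4 libraries. Monocyte-gated cells were not compared, having fewer than 50 cells in some libraries. They held more Npc2, with 1049, 1290, 1956 and 1150 CPM in old tumour, old sham, young tumour and young sham. Macrophage-gated cells held 987, 1102, 1285 and 1110 CPM in the same order. Soat1, which esterifies cholesterol for storage, was highest in astrocyte-gated cells, with 203, 243, 200.2 and 188 CPM, against 11.0, 14.5, 10.9 and 10.6 CPM in oligodendrocyte-gated cells.

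**Figure D2:**
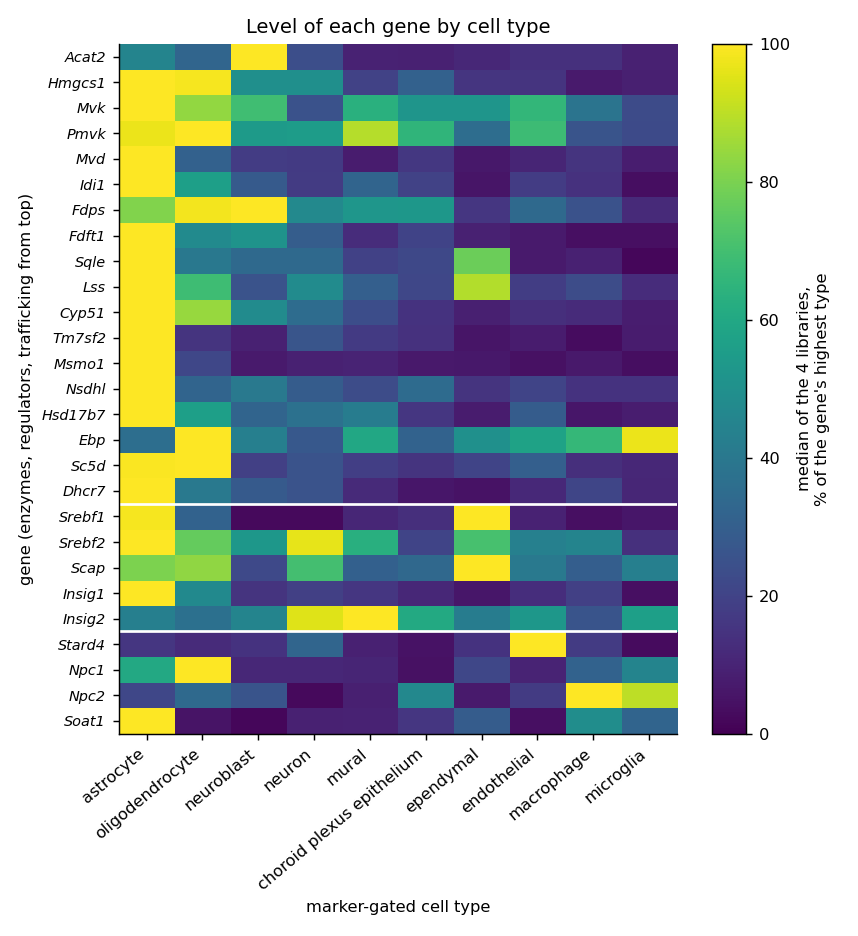
Median level over the 4 libraries of each of the 27 genes in 10 gated cell types, as a percentage of the gene's own highest type, so that colours compare types within a gene and not genes. Most enzymes peak in the astrocyte column, whereas Ebp, Stard4, Npc1 and Npc2 peak elsewhere.

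In oligodendrocyte-gated cells, some enzymes were called lower in old than in young brains, and no regulator was called. Hmgcs1, Mvd and Idi1, which act ahead of squalene, held all the calls in sham brains. The calls on enzymes of the squalene and sterol steps came from tumour-bearing brains alone. The enzyme sum was 1275 CPM in old tumour, against 1793 CPM in young tumour, a ratio of 0.711 (0.694 to 0.728). It was 1410.2 CPM in old sham, against 1932 CPM in young sham, a ratio of 0.730 (0.714 to 0.746). Both sums lay within the 1.5-fold limit used for calls. All 18 enzymes were below a ratio of 1 in tumour-bearing brains and 16 of 18 in sham brains, and the median log2 ratio of the enzymes was -0.46 and -0.33, against 0.04 and 0.08 for all genes counted. In 16 of 18 enzymes both old libraries lay below both young ones, where 19.7% of the 11414 genes counted did so. Lss and Dhcr7 were the 2 enzymes whose old and young libraries overlapped.

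Of the 27 genes, 7 were called lower in old tumour than in young tumour, where 3.59% of all genes counted were, and 0 were called higher, where 5.28% were. The 7 were Hmgcs1, Mvd, Sqle, Cyp51, Tm7sf2, Nsdhl and Hsd17b7. In old sham against young sham, 3 genes were called lower (Hmgcs1, Mvd and Idi1), where 3.99% of genes were, and 0 higher, where 7.4% were. All of these calls fell on enzymes, and at a limit of 2-fold none remained. The comparisons share no library.

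The first steps lead to mevalonate and its phosphates. Hmgcs1 (ENSMUSG00000093930, chr13:119690351-119708260), the synthase that makes HMG-CoA, had 217 CPM in old tumour, 249 in old sham, 362 in young tumour and 421 in young sham. Both old libraries were lower than both young ones, and the old to young ratios were 0.599 (0.567 to 0.633) in tumour-bearing and 0.591 (0.562 to 0.621) in sham brains. Mvk and Pmvk, the kinases that phosphorylate mevalonate, had ratios of 0.853 and 0.775 in tumour-bearing and 0.801 and 0.697 in sham brains, all within the 1.5-fold limit. Mvd (ENSMUSG00000006517, chr8:122433596-122443422), the decarboxylase that follows them, had 13.1 CPM in old tumour, 11.0 in old sham, 20.7 in young tumour and 21.4 in young sham. Its ratios were 0.631 (0.50 to 0.795) and 0.515 (0.407 to 0.649). These rest on 143 to 162 UMIs per library, of which 5 cells held 21.1% in young sham, and the log2 ratio turned to 0.17 in sham brains with each cell thinned to 1000 UMIs and to 0.27 in tumour-bearing brains among cells with a Klk6 UMI, both with intervals that included 0.

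Idi1, the isomerase of isopentenyl diphosphate (ENSMUSG00000058258, chr13:8885606-8892396), had 103 CPM in old tumour, 102 in old sham, 150 in young tumour and 160 in young sham. Its ratio of 0.638 (0.589 to 0.691) in sham brains was called, and that of 0.691 (0.636 to 0.750) in tumour-bearing brains was not. Fdps had 156, 158, 203 and 232 CPM in the same order, with ratios of 0.769 and 0.680, within the limit. Acat2 had ratios of 0.880 and 0.846 with intervals that included 1.

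The squalene and sterol steps were less even between the comparisons. Fdft1, squalene synthase, had ratios of 0.735 in tumour-bearing and 0.987 in sham brains. Sqle had 41.6 CPM in old tumour, 52.2 in old sham, 63.9 in young tumour and 65.9 in young sham, with a ratio of 0.650 (0.572 to 0.740) in tumour-bearing brains and 0.792 (0.704 to 0.892) in sham brains. Lss had ratios of 0.875 and 1.17, with intervals that included 1.

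Cyp51, the lanosterol demethylase (ENSMUSG00000001467, chr5:4080674-4104697), had 94.3 CPM in old tumour, 137 in old sham, 170.1 in young tumour and 169 in young sham. The old tumour library stood lowest, and the ratios were 0.555 (0.511 to 0.602) in tumour-bearing and 0.814 (0.757 to 0.876) in sham brains. Tm7sf2, a sterol reductase, was called lower in tumour-bearing brains at 0.508 (0.298 to 0.854), on 27 UMIs in old tumour and 38 in young tumour. Msmo1 had 143, 158, 200.1 and 232 CPM, with ratios of 0.716 and 0.683, within the limit.

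Nsdhl and Hsd17b7, which act with Msmo1 in removing sterol methyl groups, had ratios of 0.604 (0.475 to 0.767) and 0.651 (0.528 to 0.804) in tumour-bearing brains and of 0.747 and 0.836 in sham brains. The log2 ratio of Hsd17b7 in tumour-bearing brains turned to 0.23 under the same thinning and to 0.17 among cells with a Klk6 UMI. Ebp had ratios of 0.872 and 0.741. Sc5d, a sterol desaturase, had ratios of 0.870 and 1.00, and Dhcr7, the reductase that makes cholesterol from its dehydro precursor, 0.825 and 1.00. Both had intervals that included 1 in sham brains.

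**Figure D3:**
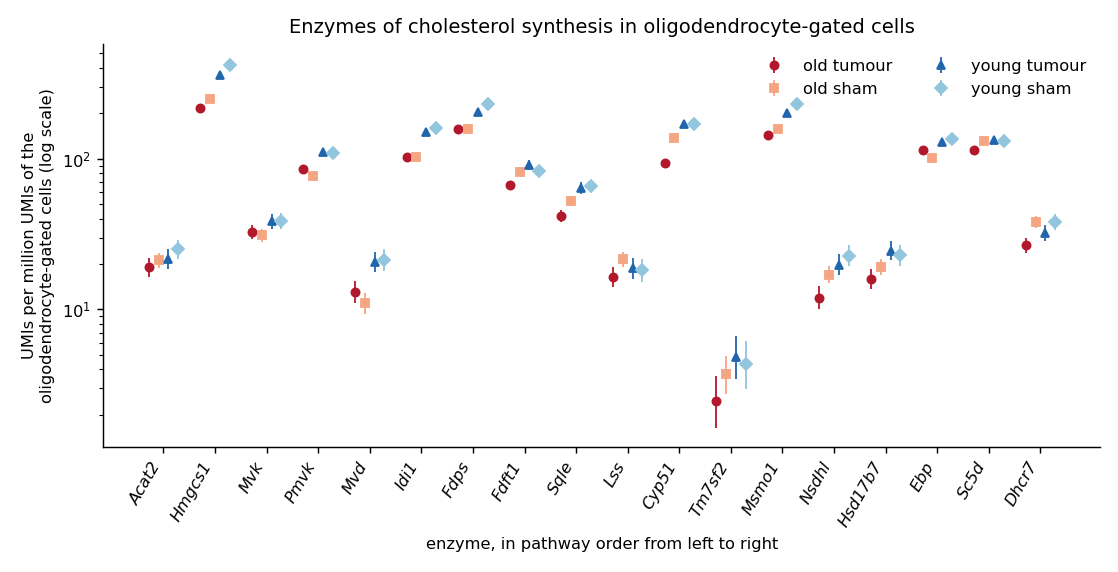
Level of each enzyme in oligodendrocyte-gated cells (CPM, log axis), in pathway order, with 1 point per library and 95% counting intervals. The old libraries (circles and squares) lie below the young ones (triangles and diamonds) for 16 of 18 enzymes, with Lss and Dhcr7 as the exceptions.

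The regulators lay at or above a ratio of about 1 in these cells, and the trafficking genes went in both directions. Srebf1 had 90.6 CPM in old tumour, 99.7 in old sham, 67.4 in young tumour and 68.8 in young sham, so both old libraries were above both young ones, as for 34% of genes counted, with ratios of 1.34 (1.21 to 1.5) and 1.45 (1.31 to 1.61), within the limit. Srebf2 had ratios of 1.02 and 1.09, Scap 1.00 and 1.00, Insig1 0.983 and 1.17, and Insig2 0.988 and 1.02. The summed level of the 5 regulators was 1.08 times (1.02 to 1.14) and 1.17 times (1.11 to 1.23) that of the young library. Npc1 had ratios of 1.16 (1.09 to 1.23) and 1.34 (1.26 to 1.42), and Npc2 0.797 (0.760 to 0.836) and 0.803 (0.767 to 0.841). Stard4 had ratios of 0.831 and 0.823 and Soat1 of 1.01 and 1.37. For Npc2 and Stard4 both old libraries lay below both young ones, as for the 16 enzymes, and for Npc1, Soat1, Srebf1 and Scap both lay above. None of these 9 genes was called.

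Other features of the oligodendrocyte-gated cells were measured beside the enzymes, and some differed between the ages. Cells with a Klk6 UMI made up 17.8% of them in old tumour, 16.4% in old sham, 11.4% in young tumour and 13.8% in young sham. Their enzyme sum was 1659, 1676, 2239 and 2518 CPM. In the cells with no Klk6 UMI the sum was 1134, 1321, 1717 and 1799 CPM. The old libraries were below the young ones in both subsets. The split also followed depth, with median UMIs of 8747, 8068, 7554 and 8806 in cells with a Klk6 UMI and 5455, 4793, 5407 and 6151 in those without. The 8 markers of newly formed oligodendrocytes summed to 540.1 CPM in old tumour, 549 in old sham, 511 in young tumour and 518 in young sham. The 20 immediate early genes, which respond to handling and stress, summed to 2100, 3958, 1534 and 2044 CPM, with 11 of 20 called higher in old than in young tumour, where 5.28% of genes were, and 15 of 20 in old than in young sham, where 7.4% were. The 8 microglia markers summed to 48.3, 48.8, 65.1 and 68.3 CPM in the oligodendrocyte-gated cells, both old libraries below both young ones. The 8 astrocyte markers summed to 198, 249, 219 and 257 CPM, and the old and young libraries overlapped. The median score of these cells for the best other type was at most 0.154, against at least 3.29 for their own. The part of the Klk6 share, of immediate early genes and of microglia and astrocyte RNA in the enzyme result was not tested.

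**Figure D4:**
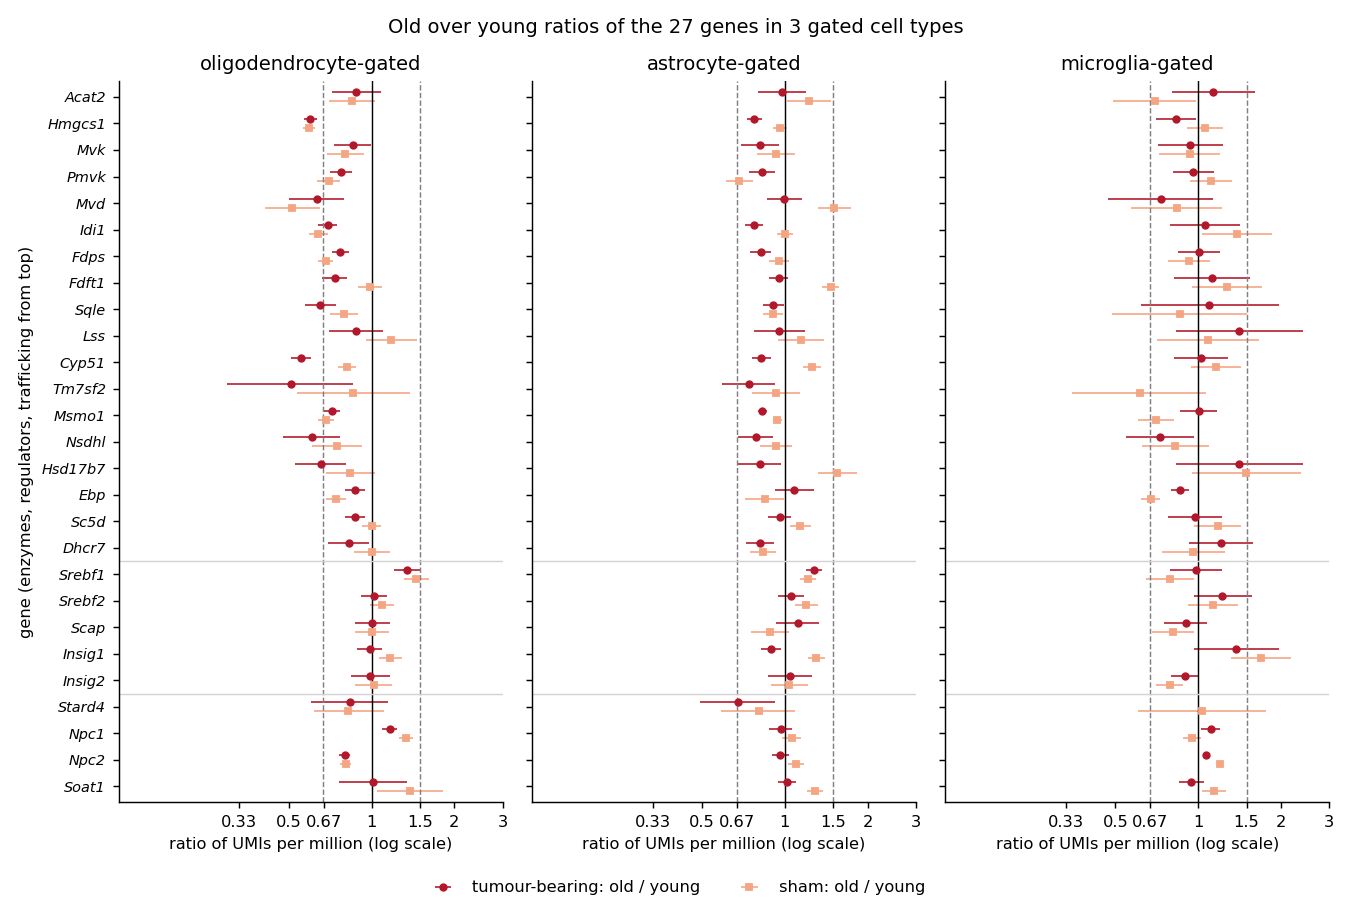
Old over young ratios of CPM for the 27 genes in oligodendrocyte-gated, astrocyte-gated and microglia-gated cells, with 95% counting intervals, on a log axis whose dashed lines mark 1.5-fold in either direction (genes under 50 UMIs are left out). In oligodendrocyte-gated cells most enzymes lie left of 1, with Hmgcs1 at 0.599 and 0.591, and Srebf1 lies right of 1 at 1.34 and 1.45.

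Tumour-bearing and sham brains differed less in these cells. The enzyme sum was 1275 CPM in old tumour, against 1410.2 CPM in old sham (ratio 0.904, 0.884 to 0.924). It was 1793 CPM in young tumour, against 1932 CPM in young sham (ratio 0.928, 0.907 to 0.951). None of the 27 genes was called in either comparison, where 1.21% of genes were called higher and 2.24% lower in old brains, and 1.23% higher and 1.2% lower in young brains. The ratios nearest to the limit were those of Tm7sf2 (0.664), Cyp51 (0.686), Dhcr7 (0.703) and Nsdhl (0.704), all in old brains. Tm7sf2 was past 1.5-fold, but its interval included 1.

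In astrocyte-gated cells, the enzymes lay nearer to a ratio of 1 between the ages, most of all in sham brains. The enzyme sum had an old to young ratio of 0.840 (0.822 to 0.857) in tumour-bearing brains and 1.01 (0.991 to 1.03) in sham brains. In 10 of 18 enzymes both old libraries lay below both young ones, where 20.4% of genes counted did so, and these included Hmgcs1, Idi1, Fdps, Sqle and Msmo1. In sham brains the ratios of Idi1 (0.998, 0.933 to 1.07) and Fdps (0.949, 0.873 to 1.03) had intervals that included 1. Those of Sqle (0.902, 0.829 to 0.981) and Msmo1 (0.939, 0.907 to 0.972) left it out. Tumour-bearing brains had ratios of 0.773 for Idi1, 0.817 for Fdps, 0.908 for Sqle and 0.827 for Msmo1. None of the 27 genes was called between old and young tumour, where 2.33% of genes were called higher and 2.02% lower. Hmgcs1 had 251 CPM in old tumour, 303 in old sham, 324 in young tumour and 315 in young sham, with ratios of 0.773 (0.725 to 0.824) and 0.962 (0.908 to 1.02).

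In sham brains, 2 enzymes were called higher in old than in young astrocyte-gated cells, where 3.27% of genes were, and 0 lower, where 2.98% were. Mvd had 54.1 CPM in old tumour, 70.3 in old sham, 54.4 in young tumour and 46.4 in young sham, a sham ratio of 1.51 (1.32 to 1.73). Hsd17b7 had 33.5, 47.8, 41.3 and 30.8 CPM, a sham ratio of 1.55 (1.32 to 1.83). Fdft1 had 168, 228, 177 and 155 CPM and came close to the limit at 1.47 (1.36 to 1.58). For these 3 enzymes the old sham library was the highest of the 4. The 8 oligodendrocyte markers summed to 280.2 CPM in old tumour, 297 in old sham, 254 in young tumour and 145 in young sham in the astrocyte-gated cells, highest in old sham as well. The 8 mural markers, at 180, 127, 203 and 144 CPM in the same order, were lowest there. The part of these lists in these values was not tested. Mvd had an old to young ratio above 1 in sham astrocyte-gated cells and below 1 in sham oligodendrocyte-gated cells.

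The astrocyte tumour to sham ratios were on opposite sides of 1 at the 2 ages for 4 of the 27 genes, all enzymes, with intervals that left out 1 at both ages and in the quotient of the old and the young ratio, and with that quotient past 1.5-fold, where 0.396% of 11119 genes met the same conditions. Hsd17b7 had a ratio of 0.700 (0.591 to 0.829) in old and 1.34 (1.12 to 1.60) in young brains. Cyp51 had 168 CPM in old tumour, 194 in old sham, 205 in young tumour and 154 in young sham, with ratios of 0.867 (0.801 to 0.938) and 1.33 (1.23 to 1.43). Fdft1 had ratios of 0.739 and 1.14, and Mvd of 0.771 and 1.17. None of these single ratios reached 1.5-fold. Idi1, Msmo1 and Insig1 also lay on opposite sides of 1 with intervals that left it out, at quotients within 1.5-fold. The enzyme sum had ratios of 0.890 (0.871 to 0.908) in old and 1.07 (1.05 to 1.09) in young brains. None of the 27 genes was called in either tumour to sham comparison, where 1.98% of genes were called higher and 1.83% lower in old, and 1.68% higher and 1.47% lower in young brains.

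None of the regulators and trafficking genes was called in astrocyte-gated cells. Srebf1 had 291 CPM in old tumour, 269 in old sham, 228 in young tumour and 222 in young sham, both old libraries above both young, as for 20.8% of genes counted, with ratios of 1.28 (1.19 to 1.37) and 1.21 (1.14 to 1.30). Insig1 had 164, 213, 184 and 164 CPM, highest in old sham. Soat1 had 203, 243, 200.2 and 188 CPM, and its old to young ratios were 1.02 and 1.29. Stard4 had 10.28, 10.39, 15.29 and 12.96 CPM, both old libraries below both young, with ratios of 0.672 (0.491 to 0.920) and 0.802 (0.585 to 1.09) on 67 to 119 UMIs per library. The ratio in tumour-bearing brains was further from 1 than that of any enzyme, and just within the 1.5-fold limit.

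**Figure D5:**
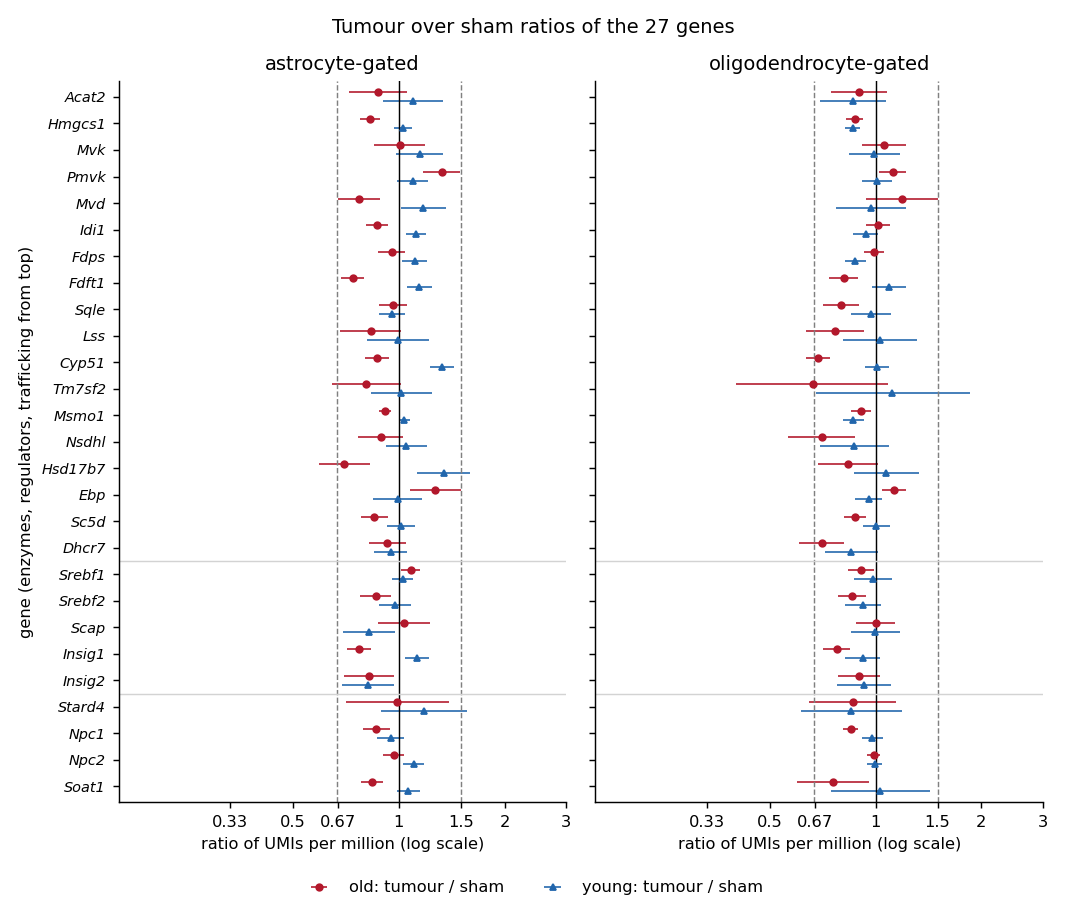
Tumour over sham ratios of CPM for the 27 genes in astrocyte-gated and oligodendrocyte-gated cells, old and young, with 95% counting intervals, on a log axis whose dashed lines mark 1.5-fold. In astrocyte-gated cells the old (circles) and young (triangles) ratios of Mvd, Fdft1, Cyp51 and Hsd17b7 lie on opposite sides of 1, as do those of some other genes by smaller amounts.

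In microglia-gated cells the pathway was low and few genes were called. The enzyme sum had tumour to sham ratios of 1.14 (1.09 to 1.20) in old and 1.05 (1.01 to 1.10) in young brains. Its old to young ratios were 0.933 (0.890 to 0.978) in tumour-bearing and 0.857 (0.819 to 0.897) in sham brains. Ebp alone held 1327 of 3651 enzyme UMIs in old tumour and 1072 of 3432 in old sham. It held 1353 of 3437 in young tumour and 1699 of 4261 in young sham. The old to young ratios of Ebp were 0.862 (0.798 to 0.930) and 0.672 (0.622 to 0.725). Both old libraries lay below both young ones for 5 of 18 enzymes, where 30.2% of genes did so. They lay above for 4, where 14.1% did. Between old tumour and old sham, Acat2 was called higher, where 4.38% of genes were, at 6.73 CPM in old tumour and 4.46 CPM in old sham, a ratio of 1.51 (1.06 to 2.16) on 80 and 57 UMIs. Among cells with neither a Tnf nor an Atf3 UMI its log2 ratio was -0.16. Ebp, the enzyme with the highest count in these cells, had 112, 83.8, 130 and 125 CPM in old tumour, old sham, young tumour and young sham. The old sham library was its lowest, and its tumour to sham ratio was 1.33 (1.23 to 1.44) in old and 1.04 (0.966 to 1.12) in young brains.

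Insig1 was called lower in old tumour than in old sham microglia-gated cells, where 3.49% of genes were, and higher in old sham than in young sham, where 5.49% were called higher and 7.67% lower. It had 7.23 CPM in old tumour, 12.9 in old sham, 5.27 in young tumour and 7.64 in young sham, with ratios of 0.561 (0.427 to 0.732) and 1.69 (1.31 to 2.18). Immediate early genes summed to 16674, 33675, 12761 and 25706 CPM in these cells, highest in old sham as well. The 8 oligodendrocyte markers summed to 144, 211, 157 and 131 CPM in the microglia-gated cells, also highest in old sham. The 8 astrocyte markers were lowest there, at 241, 210, 313 and 284 CPM. The part of these lists was not tested. In microglia-gated cells with neither a Tnf nor an Atf3 UMI, Insig1 had 7.12, 6.92, 5.42 and 6.65 CPM, and the old tumour and old sham values were then nearly equal. Those subsets held 1473 old tumour but 546 old sham cells, and 14 Insig1 UMIs in old sham. The comparisons of young tumour with young sham and of old tumour with young tumour gave 0 calls among the 27 genes, where 3.36% and 2.69% of genes were called higher and 1.89% and 3.23% lower. Npc2, abundant in microglia, had 1077, 989, 1005 and 821 CPM, with no ratio past the limit.

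Over all 14 gated types with a comparison, 60 of 787 combinations of gene, type and comparison were called (28 higher and 32 lower), or 7.62%, where 8.41% of such combinations were called over all genes. Cyp51 was called most often, 9 times. Mvk, Fdps, Sc5d, Dhcr7 and Stard4 were never called. In choroid plexus-gated cells, which make cerebrospinal fluid, 5 of the 21 genes counted were called higher in young tumour than in young sham, where 11.5% of all genes were. Cyp51 had 22.7 CPM in old tumour, 29.8 in old sham, 34.2 in young tumour and 13.4 in young sham, the young sham library being the lowest. Its ratio was 2.55 (1.87 to 3.51) between young tumour and young sham and 2.22 (1.67 to 2.98) between old sham and young sham, where 8.6% of genes were called higher. The other 4 were Srebf1 at 1.69, Scap at 1.62, Soat1 at 1.55 and Srebf2 at 1.54. The log2 ratio of Scap turned to -0.28 with each cell thinned to 1000 UMIs and that of Soat1 to -0.12 with the CPM of each cell averaged. Tumour to sham ratios lay on opposite sides of 1 at the 2 ages, for 5 genes of this type under the conditions given for astrocyte-gated cells, where 8.36% of genes met them. The 8 oligodendrocyte markers summed to 51.9, 94.2, 105 and 46.3 CPM in these cells and the 6 fibroblast markers to 41.9, 59.5, 90.9 and 42.7 CPM, so both were below sham in old tumour and above sham in young tumour, as Cyp51 was. Not all lists did so, since the 7 ependymal markers summed to 446, 381, 322 and 442 CPM, above sham in old tumour and below sham in young tumour. The part of these lists was not tested. The share of genes called in this type was high in general, and the number of cells differed, with 851 in old tumour, 514 in old sham, 230 in young tumour and 502 in young sham.

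Neuroblast-gated cells had 3 of 18 genes called higher in young tumour than in young sham, where 2.4% of genes were, namely Msmo1 at 2.03 (1.28 to 3.32), Idi1 at 1.75 (1.17 to 2.68) and Cyp51 at 1.67 (1.18 to 2.43), on 24 to 136 UMIs per library. Endothelial-gated cells had Sqle called higher in old tumour than in old sham, where 0.978% of genes were, with 12.1 CPM in old tumour, 5.99 in old sham, 10.7 in young tumour and 10.8 in young sham. The old sham library alone stood low for Sqle. Macrophage-gated cells had Soat1 called higher in young tumour than in young sham, where 5.55% of genes were, at 118 and 36.9 CPM, on 65 and 10 UMIs. The young sham library again stood apart, since old tumour had 83.8 CPM and old sham 114 CPM, and old sham was called higher than young sham, where 9.44% of genes were.

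Old sham oligodendrocyte precursor-gated cells had 2 of 23 genes called higher than young sham, where 5.58% of genes were, Srebf1 at 2.96 (1.64 to 5.86) and Cyp51 at 1.88 (1.13 to 3.32), on 12 and 17 UMIs in young sham. Idi1 was called lower there at 0.636 (0.436 to 0.946), where 3.1% of genes were. In T cell-gated cells, 3 of 8 genes were called lower in old tumour than in young tumour, where 14.5% of genes were, namely Pmvk at 0.343, Cyp51 at 0.480 and Ebp at 0.646. The log2 ratio of Cyp51 turned to 1.5 under thinning, with an interval that included 0. Old sham ependymal-gated cells had Hmgcs1 (0.613), Pmvk (0.589) and Srebf2 (0.666) called lower than young sham, where 5.85% of genes were. Old sham neuron-gated cells had Sqle (1.66), Cyp51 (1.93) and Npc1 (2.20) called higher than young sham, where 7.18% of genes were. Insig2 (0.637) was called lower there, where 6.79% were. This Srebf2 and this Sqle ratio turned round under thinning.

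Over whole libraries, where a smaller number of cells of a type and less RNA per cell cannot be told apart, 3 genes were called. Npc2 had 671 CPM in young tumour, against 433 CPM in young sham, a ratio of 1.55 (1.52 to 1.57), where 11.5% of genes were called higher. Of the young tumour Npc2 UMIs, 27% came from cells that passed no gate, 25% from microglia-gated cells and 20.5% from the Hmga2-expressing cells. These sets held 14.4%, 16.7% and 20.2% of all UMIs of that library. The Hmga2-expressing cells, at 682 CPM, thus held about their own share of Npc2. Msmo1 was called lower in young tumour than in young sham, where 15% of genes were, at 0.663, and was not called without the Hmga2-expressing cells, at 0.801, where 7.08% were. Astrocyte-gated cells held 9.42% of all UMIs in young tumour and 17.0% in young sham. Within them Msmo1 had a ratio of 1.04 (1.002 to 1.07). The part of this share was not tested. Srebf1 was called higher in old tumour than in young tumour, where 13% of genes were, at 1.52, and was not called without the Hmga2-expressing cells, where 7.67% were. None of the 27 genes was called lower in old tumour than in young tumour, where 13.5% were. The comparisons of old tumour with old sham (5.95% of genes higher, 7.44% lower) and of old sham with young sham (7.29% higher, 7.35% lower) gave 0 calls among them.

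Few genes of neighbouring pathways were called in oligodendrocyte-gated cells, as for genes in general (5.28% higher and 3.59% lower in old than in young tumour, 7.4% and 3.99% in old than in young sham). Of 12 genes of fatty acid synthesis, all counted, 0 were called higher and 1 lower in old than in young tumour, and 0 were called in old than in young sham, with median log2 ratios of -0.05 and 0.07. Of 10 genes of cholesterol export and turnover, 7 were counted, with 1 called higher in each comparison. That gene was Cyp27a1, which makes an oxysterol, with 33.4 CPM in old tumour against 20.3 in young tumour and 45.1 in old sham against 29.5 in young sham, ratios of 1.64 (1.36 to 1.99) and 1.53 (1.30 to 1.80). Cyp27a1 was also called higher in old astrocyte-gated cells in both comparisons, at 1.68 and 2.96.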

How the data were processed

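The authors deposited raw counts (unnormalized UMIs for each gene in each barcode), made with Cell Ranger. The version is 6.1.0 per the file headers and 3.0.2, with build mm10 and Seurat 2.3.4, per the submitters' processing notes. The difference was not resolved. The labels' strain entry varies in its last digit from sample to sample and was left aside.

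Filtering kept 44503 of 46097 barcodes, those that reached 500 UMIs and 200 genes and did not exceed 20% mitochondrial UMIs. Scrublet, as implemented in scanpy 1.11.5, gave doublet scores within each library, and the top-scoring cells were removed at 0.8% per 1000 barcodes (4260 cells, 9.57%). A cell was gated to the type with the highest mean log value over its 6 to 8 markers if at least 3 markers had a UMI and the next type scored at most 0.5 of it. A cell counted as near the limit where the next type scored 0.4 to 0.6 of the best. Cells with at least 3 Hmga2 UMIs were set apart first, and cells with over 10% hemoglobin UMIs were left out. The cell types were rebuilt here, with no annotation from the authors, so names and shares can differ from the study's own.

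UMIs were summed per type and library and divided by the type's total. Ratios carry exact conditional Poisson intervals (scipy 1.17.1), for types with at least 50 cells in both libraries. With 1 library per group no model was fitted and no p-value was computed. The ratios and intervals were checked on simulated Poisson counts with set fold changes. Those counts hold no variation between mice, preparations or cells, so the check covers counting error alone. The 27 genes, the gene lists and the markers were chosen with earlier results of these data known. Named genes were all 27, list genes called in both comparisons of a kind, and the 10 genes most alike in pattern. Genes on which tumour and sham ratios differ in direction between the ages, and values singled out within types, were picked after their values were seen. Promoters and gene positions come from RefSeq and its table for GRCm38.p6, of the same build family as mm10, and 22 of the 27 genes had a promoter entry.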

Additional observations from a re-analysis of the deposited data

Results flagged for a closer look

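For 9 combinations of gene and type, the tumour to sham ratio lay on opposite sides of 1 in old and young brains, with counting intervals that left out 1 at both ages and the 2 ratios more than 1.5-fold apart. With 1 library per group the difference was not tested. The value given is the quotient of the old and the young ratio.

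In astrocyte-gated cells, where 0.396% of all genes counted did the same, the genes were 4 of the 27. The value was 0.657 for Mvd (0.771 in old, 1.17 in young), 0.646 for Fdft1 (0.739 in old, 1.14 in young), 0.653 for Cyp51 (0.867 in old, 1.33 in young) and 0.522 for Hsd17b7 (0.700 in old, 1.34 in young). All 4 had their highest or second highest level in old sham. The immediate early genes, at 654, 782, 659 and 738 CPM in old tumour, old sham, young tumour and young sham, were highest in old sham too. Unlike the 4 genes, they were below sham in young tumour as well. The 8 oligodendrocyte markers summed to 280.2, 297, 254 and 145 CPM in these cells, also highest in old sham, with young sham lowest. The 8 mural markers, at 180, 127, 203 and 144 CPM, were lowest in old sham. The part of these lists in these values was not tested.

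In choroid plexus-gated cells, where 8.36% of genes did the same, the genes were 5 of 21 counted. The value was 0.299 for Cyp51 (0.763 in old, 2.55 in young), 0.493 for Srebf2 (0.759 and 1.54), 0.463 for Scap (0.752 and 1.62), 0.472 for Soat1 (0.732 and 1.55) and 1.67 for Fdps (1.28 and 0.765). The median UMIs of these cells were 13122 in old tumour, 8980 in old sham, 6213 in young tumour and 7262 in young sham, so depth moved with the groups. The 8 oligodendrocyte markers summed to 51.9, 94.2, 105 and 46.3 CPM and the 6 fibroblast markers to 41.9, 59.5, 90.9 and 42.7 CPM in the same order, below sham in old tumour and above sham in young tumour, as were all of these genes but Fdps. The 7 ependymal markers, at 446, 381, 322 and 442 CPM, went the other way at both ages. The part of depth and of these markers was not tested.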

How the results depend on the processing

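No paired analysis was possible because each group has 1 library. Values are log2 ratios of the enzyme sum unless a gene is named, and comparisons are written as tumour/sham or old/young. In oligodendrocyte-gated cells, all 10 alternatives kept the direction in all 4 comparisons, and the old/young values ranged over -0.60 to -0.36 in tumour-bearing and -0.59 to -0.35 in sham brains. The direction also held in all 8 alternatives for astrocyte-gated cells, except old/young in sham brains (5 of 8). At a ratio of at least 2 there were 0 calls in the 3 main types. Counting error is all that the intervals cover, and thinning left few UMIs of low genes.

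With no Klk6 UMI, oligodendrocyte-gated values were -0.22 (tumour/sham, old), -0.067 (tumour/sham, young) and -0.60 (old/young, tumour-bearing). With a Klk6 UMI they were -0.015, -0.17, -0.43 and -0.59 (old/young, sham), and Mvd (0.27) and Hsd17b7 (0.17) turned round in old/young, tumour-bearing. These 2 subsets and the Tnf or Atf3 subset below were chosen after seeing the data. Median-centred scaling gave -0.096, -0.53 and -0.53 in oligodendrocyte-gated cells (tumour/sham old, old/young tumour-bearing, old/young sham). It gave -0.12 in astrocyte-gated (tumour/sham, old), -0.14 in microglia-gated (old/young, sham), and -0.096, -0.18 and -0.085 in whole libraries (tumour/sham old, tumour/sham young, old/young sham).

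Thinning each cell to 1000 UMIs gave -0.058, -0.057, -0.36 and -0.36 in oligodendrocyte-gated cells (tumour/sham old and young, old/young tumour-bearing and sham). It gave 0.13 (tumour/sham, young) and -0.29 (old/young, tumour-bearing) in astrocyte-gated and 0.29 (tumour/sham, old) and -0.34 (old/young, sham) in microglia-gated cells. It turned round 10 single calls, each with an interval that included 0. These were Cyp51 in T cell-gated (1.5), Hsd17b7 (0.23) and Mvd (0.17) in oligodendrocyte-gated, Lss (-0.46) and Hsd17b7 (-0.12) in endothelial-gated, Scap in choroid plexus-gated (-0.28 tumour/sham young, 0.075 old/young tumour-bearing), Srebf2 in ependymal-gated (0.068) and neuroblast-gated (-0.080), and Sqle in neuron-gated cells (-1.51). The cause was not tested. Thinning left out 11, 42, 6 and 5 oligodendrocyte-gated, 66, 133, 180 and 116 astrocyte-gated and 56, 61, 139 and 187 microglia-gated cells (old tumour, old sham, young tumour, young sham).

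The mean of each cell's CPM gave -0.38 and -0.35 in oligodendrocyte-gated cells (old/young), -0.12 in astrocyte-gated cells (tumour/sham, old), -0.14, -0.083, -0.060 and -0.0018 in whole libraries (tumour/sham old and young, old/young tumour-bearing and sham), and turned round Soat1 in choroid plexus-gated cells (-0.12, tumour/sham, young). A stricter filter gave -0.13 and 0.13 in astrocyte-gated cells (tumour/sham, old and young) and -0.21, -0.33, 0.037 and -0.079 in whole libraries. Totals without mitochondrial and ribosomal protein genes gave -0.11 (tumour/sham, old) and -0.033 (old/young, sham) in astrocyte-gated cells and -0.14, -0.22 and -0.039 in whole libraries (tumour/sham old and young, old/young tumour-bearing). No doublet removal gave 0.063 in astrocyte-gated cells (tumour/sham, young). Without Hmga2-expressing cells, whole libraries gave -0.11 (tumour/sham, young) and -0.18 (old/young, tumour-bearing). In microglia-gated cells with no Tnf or Atf3 UMI, values were 0.014, -0.0031 and -0.079 (tumour/sham old and young, old/young sham), and Acat2 (-0.16) and Insig1 (0.041) turned round in tumour/sham, old. At least 200 UMIs left 0 genes called higher in microglia-gated cells of old tumour against old sham.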

Other observations

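Outside the 27 genes, Ch25h, which makes an oxysterol, was called higher in old microglia-gated cells in both comparisons, with 11.2 CPM in old tumour against 2.3 in young tumour and 5.39 in old sham against 1.25 in young sham. The ratios were 4.87 (3.14 to 7.86) and 4.32 (2.51 to 7.84), on 157 and 86 UMIs. It belongs to a list of 10 export and turnover genes, of which 8 were counted in each comparison and 1 was called higher in each, where 2.69% of all genes were called higher between old and young tumour and 5.49% between old and young sham. Fatty acid synthesis, with 12 genes, had 0 higher and 1 lower among 9 counted between old and young tumour in these cells, and 1 higher and 0 lower among 10 counted between old and young sham, where 3.23% and 7.67% of all genes were called lower.

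The genes whose level over 10 types and 4 libraries (40 values) was most like the mean of the 18 enzymes, among 12427 genes, were Cdh20 with a correlation of 0.90, then Gm20515, Pmm1, 4933431E20Rik, Sox8, Ddhd1, Cadm4, Phyhipl, Erg28 and Gstm5, the last with 0.86. The types share libraries, and this is a description with no test.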
